A study of Mus musculus with 24 samples.

Results

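miR-142a and miR-223 are the microRNAs by which blood-derived cells are most easily recognised in a small RNA profile, and both arms of each, 4 mature miRNAs, were followed in mouse lung after thoracic irradiation. They were chosen by name, as the miRNA of all leukocytes and the miRNA of neutrophils and monocytes, with earlier results of these data known. All 4 of 4 were present in each of the 3 count tables, which list 1657, 1707 and 1767 mature miRNAs at day 14, 90 and 180. The irradiated groups were lungs of C57BL/6 mice, an inbred strain, that received 15 Gy of X-rays to the whole thoracic cavity, taken at day 14, day 90 and day 180, and each had a control group taken at the same day. The mice were 6 to 8 weeks old when they were divided into groups, and no allele or second agent is named for any of the 6 groups. Each group had 4 libraries, 24 in all, and since the labels leave unsaid whether each library is an animal of its own, a p-value here measures spread between libraries only.

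MicroRNAs are cut from a hairpin precursor, which yields a 5p and a 3p strand. One strand is loaded into an Argonaute protein and pairs with messenger RNAs through its seed, bases 2 to 8, while the other strand is often degraded. miR-142 is made in nearly all cells of the haematopoietic lineage and is used as a tag of leukocytes, and both of its arms are known to be functional. miR-223 is induced during granulocyte and monocyte differentiation, is very abundant in neutrophils and in platelets, and restrains neutrophil activation and the NLRP3 inflammasome. In lung both are therefore read from leukocytes, resident or circulating, and from the blood that the tissue holds.

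The 4 mature sequences are shown because they set what each count measures and which targets each arm can reach. The capitals mark the seed, and the sequences are those of RefSeq for GRCm38.p6, in which all 4 names were found.
mmu-miR-142a-3p: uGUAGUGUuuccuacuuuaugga
mmu-miR-142a-5p: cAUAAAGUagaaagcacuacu
mmu-miR-223-3p: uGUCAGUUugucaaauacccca
mmu-miR-223-5p: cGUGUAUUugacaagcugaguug
The 4 seeds differ from each other, and among the 1679 mature miRNAs of the RefSeq table no other miRNA had the seed of any of the 4. The lengths are 23, 21, 22 and 23 bases in the order shown.

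The hairpins are shown with both arms in capitals, 5p first, because the balance of the 2 arms is a measurement below.
Mir142: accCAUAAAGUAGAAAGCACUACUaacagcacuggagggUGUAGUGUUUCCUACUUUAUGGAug
Mir223: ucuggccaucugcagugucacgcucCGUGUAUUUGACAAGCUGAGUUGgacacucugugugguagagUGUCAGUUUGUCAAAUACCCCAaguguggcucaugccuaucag
Mir142 lies at chr11:87756864-87756927 on the plus strand, within the long non-coding RNA gene Mir142hg and outside its annotated exons. Mir223 lies at chrX:96242817-96242926 on the plus strand, in an exon of the non-coding RNA gene F630028O10Rik (GENCODE annotation of GRCm38). A second annotated hairpin, Mir142b, lies on the opposite strand over Mir142 at chr11:87756841-87756955.
mmu-miR-142b: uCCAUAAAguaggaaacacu
This mature miRNA is 20 bases long and is, base for base, the reverse complement of part of miR-142a-3p, so it is counted apart from miR-142a-3p only if the counting used strand; whether it did is not stated in the labels or file headers.

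Total counts were 2832205 to 3695133 per library, the lowest in irradiated library 1 of day 180. The lung's own miRNAs were at high levels in every library: the endothelial miR-126a arms summed to between 35794 and 57787 CPM and the lung epithelial list to between 33025 and 79210 CPM. CPM are counts scaled to a common library total by the TMM method within a day. miR-126a-3p was the most abundant miRNA at each day, and its counts spanned 111905 to 113233 in the irradiated libraries and 112416 to 112941 in the control libraries of day 180, while the totals of that day differed by up to 30.5%. The median coefficient of variation among the day 180 control libraries was 4.08% for the 26 miRNAs with over 50000 mean counts and 16.2% for the 100 with 1000 to 10000, and what holds the highest counts so close was not tested. The highest count of a member was 10731, far below these.

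None of the 4 miRNAs passed the test between irradiated and control lungs at any of the 3 days. The lowest unadjusted p was that of miR-223-3p, the abundant arm of the myeloid miRNA, at day 14: irradiated lungs averaged 754 ± 108 CPM, against 1012 ± 221 CPM in controls (n = 4 per group, ± SD). Its mean at day 90 was 1546 ± 771 CPM in irradiated lungs, against 1872 ± 362 CPM in controls, and at day 180 it was 1360 ± 429 CPM in irradiated lungs, against 1407 ± 231 CPM in controls. miR-142a, the leukocyte miRNA, varied 1.8-fold to 2.8-fold among the irradiated libraries of a day, which is more than any difference of its group means.

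**Figure D1:**
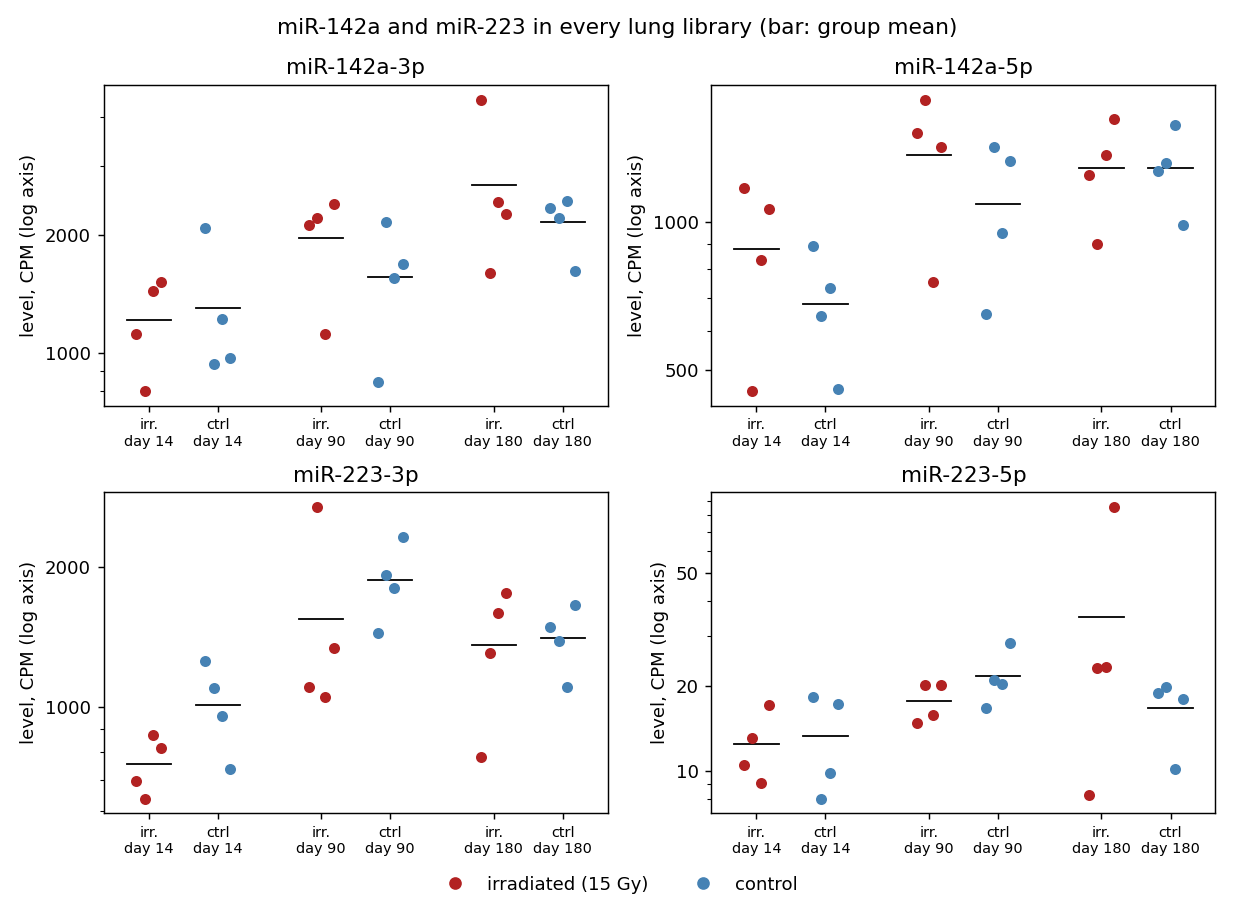
Level in CPM on log axes of miR-142a-3p, miR-142a-5p, miR-223-3p and miR-223-5p in each library; red points are irradiated and blue points control libraries at day 14, 90 and 180, and the bars are group means. The red and blue points overlap in every panel at every day; miR-223-5p of 1 irradiated library at day 180 stands at 85.4 CPM.

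miR-142a-3p is the more abundant arm of the leukocyte miRNA by counts and ranked 88 of 499 miRNAs tested at day 14. At day 14 its level was 1116, 798, 1435 and 1514 CPM in irradiated libraries 1 to 4, against 2082, 939, 1223 and 970 CPM in control libraries 1 to 4. The groups overlapped, and the highest value was that of a control library. The log2 fold change was -0.10 ± 0.30 (SE; edgeR adjusted p = 0.978), with a 95% interval of 0.583-fold to 1.49-fold, and it was 0.24 without control library 1 and 0.07 without irradiated library 2.

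At day 90 miR-142a-3p stood at 2125, 2207, 1118 and 2404 CPM in the irradiated libraries, against 842, 2153, 1556 and 1686 CPM in the control libraries. Each group held 1 library well below its other 3, and the groups overlapped. Its log2 fold change was 0.33 ± 0.30 (SE; edgeR adjusted p = 0.716; 95% interval 0.789-fold to 2.01-fold). At day 180 it stood at 4429, 1597, 2430 and 2268 CPM in the irradiated libraries, against 2346, 2212, 2435 and 1617 CPM in the control libraries. In CPM irradiated library 1 was above all others and the other 3 lay within the control range or just below it. Before scaling the gap was smaller, at 10731 counts, against 9603 in irradiated library 3 and 8823 in control library 1. Irradiated library 1 held 2832205 counts over all miRNAs and 1023 miRNAs detected, fewer than any other library. The part of scaling in its level was not tested. The log2 fold change was 0.32 ± 0.31 (SE; edgeR adjusted p = 0.607; 95% interval 0.772-fold to 2.01-fold). This value rested on irradiated library 1, being -0.05 without that library, and the median log2 fold change of all miRNAs at day 180 was 0.13.

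miR-142a-5p, the arm with the other seed, is counted at a similar level. At day 14 it stood at 1172, 453, 835 and 1061 CPM in the irradiated libraries, against 895, 643, 733 and 458 CPM in the control libraries. Irradiated library 2 was the lowest of all and irradiated libraries 1 and 4 the highest, so the wider spread was on the irradiated side. For this arm the log2 fold change was 0.37 ± 0.31 (SE; edgeR adjusted p = 0.919; 95% interval 0.793-fold to 2.10-fold). At day 90 it stood at 1511, 1770, 756 and 1415 CPM in the irradiated libraries, against 650, 1421, 950 and 1327 CPM in the control libraries. As for the 3p arm, irradiated library 3 and control library 1 were the low ones, and the log2 fold change was 0.33 ± 0.30 (SE; edgeR adjusted p = 0.727). At day 180 it stood at 1247, 902, 1368 and 1615 CPM in the irradiated libraries, against 1267, 1314, 1571 and 984 CPM in the control libraries. The ranges nearly coincided, and the fold of irradiated over control lungs had a 95% interval of 0.680 to 1.47 (edgeR adjusted p = 0.997).

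miR-223-3p is the guide strand of the myeloid miRNA. At day 14 it stood at 695, 636, 870 and 816 CPM in the irradiated libraries, against 1256, 1098, 956 and 736 CPM in the control libraries. Of the controls, 3 were above all irradiated libraries and control library 4 was not, so the groups overlapped by that 1 library. The log2 fold change was -0.42 ± 0.19 (SE; edgeR unadjusted p = 0.0515, adjusted p = 0.883), with a 95% interval of 0.555-fold to 1.00-fold, and leaving out each library in turn gave -0.52 to -0.28. Fewer cells of a type and less RNA per cell cannot be told apart in RNA of whole tissue. The erythroid list, which reads the blood held in the lung, had 0 of 5 miRNAs called at day 14, all 5 with a log2 fold change above 0 and a median of 0.30. Its sum of 30962 to 37049 CPM in irradiated libraries, against 28134 to 37167 CPM in control libraries, is mostly miR-451a, which averaged 31555 ± 3038 CPM in irradiated lungs, against 30084 ± 3958 CPM in controls. miR-451a is among the miRNAs with over 50000 mean counts, which vary little. Their median coefficient of variation among day 14 controls was 7.59%, against 19.3% for miRNAs with 1000 to 10000. miR-144-3p, from the same cluster as miR-451a, averaged 1558 ± 480 CPM in irradiated lungs, against 957 ± 421 CPM in controls (edgeR adjusted p = 0.907). miR-486a-5p and miR-486b-5p, which have identical counts at this day, averaged 722 ± 89.7 CPM in irradiated lungs, against 588 ± 88.6 CPM in controls (edgeR adjusted p = 0.907). The part of blood in the miR-223-3p level was not tested.

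At day 90 miR-223-3p stood at 1103, 2688, 1053 and 1342 CPM in the irradiated libraries, against 1442, 1917, 1807 and 2321 CPM in the control libraries. Irradiated libraries 1, 3 and 4 were below all controls and irradiated library 2 was above all of them. The log2 fold change was -0.28 ± 0.30 (SE; edgeR adjusted p = 0.787), and without irradiated library 2 it was -0.71 (adjusted p = 0.332). At day 180 it stood at 783, 1305, 1595 and 1759 CPM in the irradiated libraries, against 1488, 1385, 1103 and 1654 CPM in the control libraries. Irradiated library 1, the one with the highest miR-142a-3p, had the lowest miR-223-3p, and the log2 fold change was -0.05 ± 0.28 (SE; edgeR adjusted p = 0.943), or 0.13 without that library. Of the erythroid list 0 of 5 were called, with 2 above 0 at day 90 and 1 at day 180. miR-144-3p averaged 3074 ± 1528 CPM in irradiated lungs of day 90, against 1092 ± 507 CPM in controls (edgeR adjusted p = 0.156). All irradiated libraries were above all controls there, as in 4.84% of all miRNAs. At day 180 miR-144-3p averaged 1264 ± 611 CPM in irradiated lungs, against 2262 ± 607 CPM in controls (edgeR adjusted p = 0.259). The part of blood was not tested at these days.

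miR-223-5p, the passenger strand, was rare, with 20 to 309 counts per library, so its counting error is larger. At day 14 it stood at 10.5, 13.1, 9.07 and 17.1 CPM in the irradiated libraries, against 18.2, 8.00, 9.89 and 17.2 CPM in the control libraries. At day 90 it stood at 14.8, 20.2, 15.8 and 20.2 CPM in the irradiated libraries, against 16.8, 21.0, 20.4 and 28.2 CPM in the control libraries. The ranges overlapped at both days, with the highest value in a control library each time. Its log2 fold changes were -0.10 ± 0.32 and -0.28 ± 0.23 (SE; edgeR adjusted p = 0.978 and 0.683). At day 180 it stood at 8.26, 23.2, 23.3 and 85.4 CPM in the irradiated libraries, against 18.9, 19.8, 10.2 and 17.9 CPM in the control libraries. Irradiated library 4 was far above all others and irradiated library 1 was the lowest of the 8. The log2 fold change of 1.07 ± 0.61 (SE; edgeR adjusted p = 0.394; 95% interval 0.812-fold to 5.44-fold) was 0.14 without irradiated library 4.

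**Figure D2:**
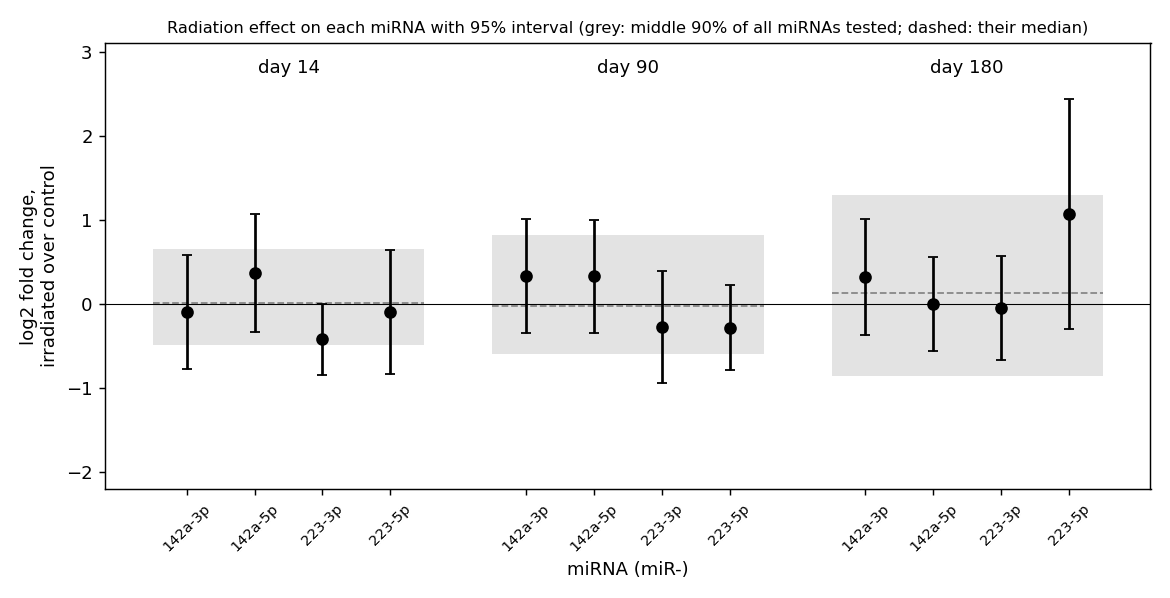
Log2 fold change of irradiated over control lungs for the 4 miRNAs at day 14, 90 and 180, as points with 95% intervals from edgeR; the grey band is the middle 90% of all miRNAs tested at that day and the dashed line their median. Every interval crosses 0, and every point lies inside the band.

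The comparison at each day asked which miRNAs irradiation alters early, at an intermediate time and late. With edgeR's quasi-likelihood test and a threshold of 0.05 on p adjusted over all miRNAs of the day, 0 of 4 members were called at each day, against 0% of 499, 0.358% of 558 and 0% of 552 miRNAs tested. No member had an unadjusted p under 0.05 at any day, against 5.41%, 12.7% and 18.3% of all miRNAs, and DESeq2 and limma-voom likewise called 0 of 4. The irradiated and control libraries were free of overlap in 0 of 4 members, against 2.4%, 7.17% and 12% of all miRNAs. Of all miRNAs, the irradiated libraries lay wholly below the controls in 1.6%, 2.33% and 6.52% at the 3 days and wholly above them in 0.802%, 4.84% and 5.43%. The median log2 fold change over the 4 members was -0.10, 0.03 and 0.16 at day 14, 90 and 180, against 0.01, -0.02 and 0.13 over all miRNAs.

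The radiation effect of the members was not shown to differ between days. In a joint edgeR fit of all 24 libraries on 624 shared miRNAs, 0 of 4 members were called in each of the 3 differences of effect, against 0% of all miRNAs in each, with 28, 71 and 91 miRNAs at an unadjusted p under 0.05 for day 90 minus 14, day 180 minus 14 and day 180 minus 90. These differences share the libraries of each day. The largest difference of log2 fold changes was that of miR-223-5p for day 180 minus day 90, 1.32 ± 0.64 (SE; edgeR adjusted p = 0.327), which was 0.50 without irradiated library 4 of day 180. For miR-223-3p the differences were 0.15 ± 0.39, 0.35 ± 0.39 and 0.20 ± 0.39 (SE; edgeR adjusted p = 0.996, 0.788 and 0.867), and for miR-142a-3p they were 0.44 ± 0.47, 0.41 ± 0.47 and -0.03 ± 0.47 (SE; edgeR adjusted p = 0.996, 0.794 and 0.985).

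Set on 1 scale over all 24 libraries, the levels of a member ordered the 6 groups as follows, although the 3 tables were made separately and day cannot be told apart from table or from the age of the mice. miR-142a-3p was highest in irradiated lungs of day 180 (2542 ± 1202 CPM), then in controls of day 180 (2058 ± 359 CPM) and irradiated lungs of day 90 (1855 ± 543 CPM), and lowest in irradiated lungs of day 14 (1353 ± 370 CPM; SD, n = 4 each). miR-223-3p had another order, with the highest mean in controls of day 90 (1771 ± 392 CPM), then irradiated lungs of day 90 (1465 ± 744 CPM), and the lowest in irradiated lungs of day 14 (840 ± 122 CPM). miR-142a-5p ran from 1288 ± 412 CPM in irradiated lungs of day 90 to 759 ± 197 CPM in controls of day 14, and miR-223-5p from 32.5 ± 31 CPM in irradiated lungs of day 180 to 13.9 ± 4.34 CPM in irradiated lungs of day 14. For none of the 4 members did neighbouring groups in the order differ by more than their SDs.

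A ratio of 2 counts of the same library does not depend on how libraries are scaled, and 6 such ratios were compared at each day, 18 exact permutation tests in all. The 5p over 3p ratio of miR-142a asks whether the arms keep their balance. At day 14 it was 1.05, 0.567, 0.582 and 0.701 in the irradiated libraries, against 0.430, 0.684, 0.599 and 0.472 in the control libraries. The 5p arm outnumbered the 3p arm in irradiated library 1 of day 14 and in no other of the 24 libraries. The difference of log2 ratios was 0.39 at day 14 (two-sided exact permutation p = 0.229, adjusted p = 0.707), -0.03 at day 90 and -0.25 at day 180, where it was 0.03 without irradiated library 1, whose ratio was 0.282.

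The 3p arm of miR-223 exceeded its 5p arm by 20.6-fold to 132-fold in irradiated libraries and 42.4-fold to 135-fold in control libraries. By counts its arms were thus far less balanced than those of miR-142a. How closely the counts of different arms follow their molecules was not tested. At day 90 the ratio was 73.9, 132, 66.2 and 65.9 in the irradiated libraries, against 85.2, 90.8, 88.0 and 81.8 in the control libraries, which lay within the irradiated range. At day 180 irradiated library 4 had the lowest ratio of all, 20.6. Its miR-223-3p, 1759 CPM, was near the highest control value of 1654 CPM, and its miR-223-5p was the highest of the day. The differences of log2 ratios were -0.35, -0.10 and -0.72 at day 14, 90 and 180 (two-sided exact permutation p = 0.486, 0.771 and 0.143, adjusted p = 0.814, 0.926 and 0.643).

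The ratio of miR-223-3p to miR-142a-3p sets the myeloid against the leukocyte miRNA. At day 90 it was 0.519, 1.22, 0.942 and 0.558 in the irradiated libraries, against 1.71, 0.891, 1.16 and 1.38 in the control libraries. The groups overlapped, with a difference of log2 ratios of -0.72 (two-sided exact permutation p = 0.143, adjusted p = 0.643). The difference was -0.34 at day 14 (p = 0.286 by the same exact test) and -0.33 at day 180 (exact p = 0.743), and irradiated library 1 of day 180 had the lowest ratio of all, 0.177. Without that library the day 180 difference was 0.19.

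miR-150-5p, abundant in mature B and T cells, was set against miR-142a-3p in the same way. At day 90 the ratio was 7.19, 4.80, 11.1 and 6.75 in the irradiated libraries, against 26.2, 10.2, 16.7 and 8.64 in the control libraries. Of the irradiated libraries 3 were below all controls, and library 3, at 11.1, was not. The geometric mean in irradiated lungs was 0.510 times that of control lungs (two-sided exact permutation p = 0.0857, adjusted p = 0.643), the lowest p of the 18. It was 0.888 times at day 14 and 0.748 times at day 180 (exact permutation p = 0.543 and 0.314). At day 90 miR-150-5p itself averaged 13626 ± 2595 CPM in irradiated lungs, against 21100 ± 4756 CPM in controls. Its log2 fold change was -0.63 (edgeR unadjusted p = 0.00657, adjusted p = 0.193), against 0.33 for miR-142a-3p (unadjusted p = 0.298). None of the 18 ratios passed after adjustment, but the test had little room to pass. The smallest exact permutation p that 4 against 4 libraries allow is 0.0286, which becomes 0.514 for a single ratio adjusted over 18, and at least 11 ratios would have to stand at that limit for any to pass.

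**Figure D3:**
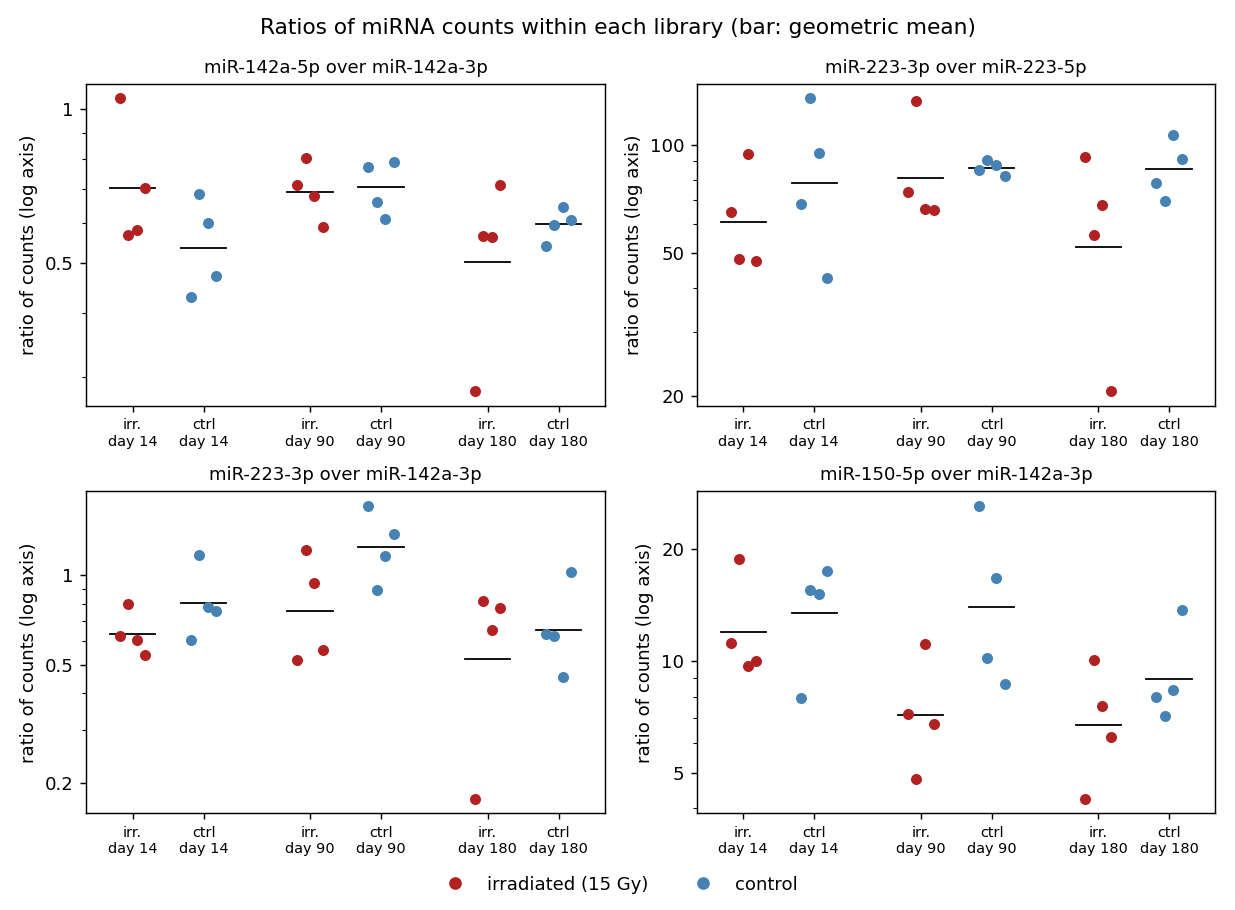
Ratios of counts within each library on log axes for miR-142a-5p over miR-142a-3p, miR-223-3p over miR-223-5p, miR-223-3p over miR-142a-3p and miR-150-5p over miR-142a-3p; red points are irradiated and blue points control libraries, and the bars are geometric means. The groups overlap in each panel and day, and irradiated libraries 1 and 4 of day 180 stand low at 0.177 for miR-223-3p over miR-142a-3p and 20.6 for miR-223-3p over miR-223-5p.

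The members were also set against markers of other compartments. miR-223-3p over the erythrocyte miRNA miR-451a was 0.0185 to 0.0264 in irradiated and 0.0247 to 0.0494 in control libraries of day 14 (difference of log2 ratios -0.48, two-sided exact permutation p = 0.143, adjusted p = 0.643). It was -0.33 at day 90 and 0.06 at day 180 (exact permutation p = 0.286 and 1). miR-142a-3p over the endothelial miR-126a-3p differed by -0.08, 0.39 and 0.15 at day 14, 90 and 180 (exact permutation p = 0.886, 0.371 and 0.543). Since the counts of miR-126a-3p differed by at most 1.19% among the 8 libraries of day 180, the ratio over it follows the count of miR-142a-3p there. miR-451a too is among the miRNAs with over 50000 mean counts, and what this does to the ratio over miR-451a was not tested.

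Beyond day and treatment, the 2 arms of miR-142a varied together from library to library. On log2 CPM centred on each group mean, Pearson's r of miR-142a-3p with miR-142a-5p was 0.757 over 24 libraries (Spearman's rho 0.665; permutation within groups, p = 0.00027 and 0.00307, adjusted over the 6 pairs of members 0.00162 and 0.0184). It was 0.799 without the 2 libraries farthest from the median of miR-142a-3p, and 0.719, 0.944 and 0.515 within day 14, 90 and 180. The arms of miR-223 had an r of 0.541 (rho 0.519; permutation p = 0.0155 and 0.0178, adjusted 0.0465 and 0.0533). That relation rested on few libraries: r was 0.461 without the 2 libraries farthest from the median (permutation, adjusted p = 0.119), 0.351 without irradiated library 1 of day 180 (permutation, adjusted p = 0.0785), and -0.08, 0.745 and 0.853 within the 3 days.

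miR-142a-3p and miR-223-3p did not pass as a pair, with an r of 0.161 and a rho of 0.237 (permutation p = 0.546 and 0.33, adjusted 0.656 and 0.396). Within days r was 0.750 at day 14, 0.532 at day 90 and -0.755 at day 180, over 8 libraries each. The negative value of day 180 came with irradiated library 1, without which it was -0.15, and over the 23 other libraries r was 0.498 (permutation p = 0.0524, adjusted p = 0.0785). The remaining pairs had an r of 0.464 for miR-142a-5p with miR-223-3p (rho 0.467; permutation p = 0.0506 and 0.04, adjusted 0.101 and 0.08), 0.156 for miR-142a-5p with miR-223-5p (adjusted permutation p = 0.656) and -0.10 for miR-142a-3p with miR-223-5p (adjusted permutation p = 0.76). Of the 6 pairs of members, 2 passed by Pearson's r and 1 by Spearman's rho.

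**Figure D4:**
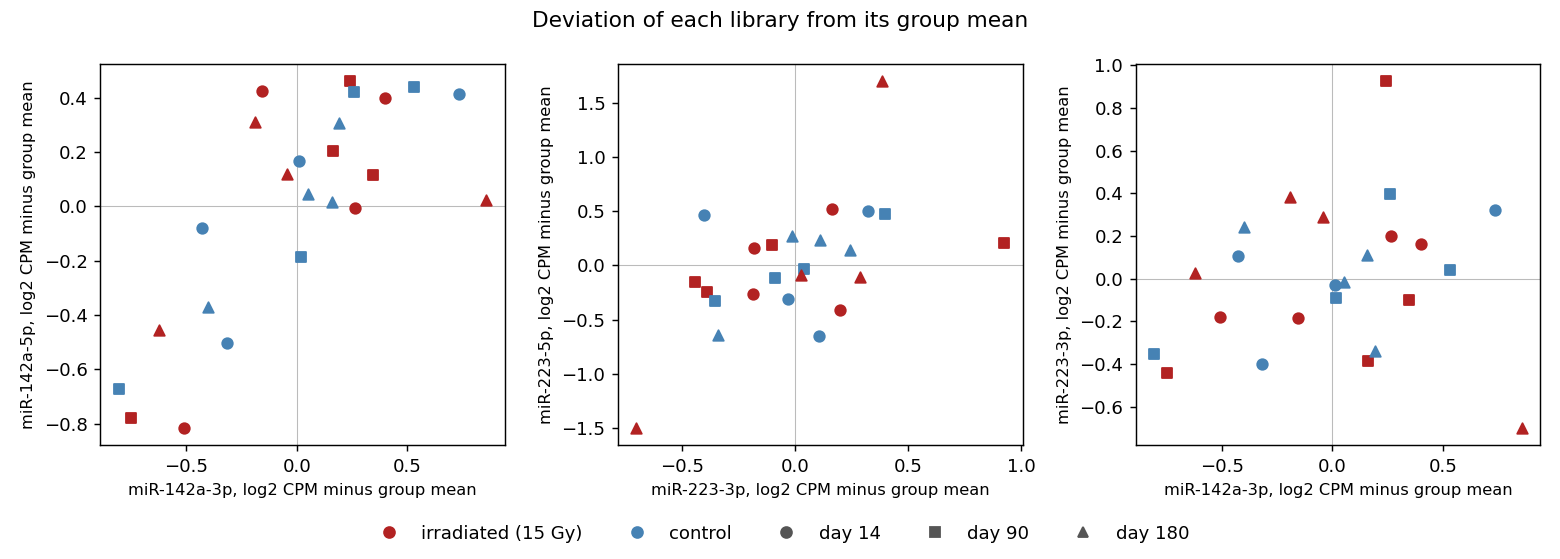
Deviation of each library from the mean of its group, in log2 CPM, for miR-142a-5p against miR-142a-3p (left), miR-223-5p against miR-223-3p (middle) and miR-223-3p against miR-142a-3p (right); colour gives irradiated (red) or control (blue) and the marker gives the day. The arms of miR-142a lie along a rising line (r = 0.757), and in the right panel irradiated library 1 of day 180 lies at the lower right, high in miR-142a-3p and low in miR-223-3p.

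The 3 miRNAs outside the members whose centred levels were most like those of miR-142a-3p among 623 compared were miR-142b, with r = 0.855, miR-136-5p, with r = 0.808, and miR-126b-3p, with r = 0.747, over 24 libraries. Those most like miR-223-3p were miR-1941-3p, with r = 0.706, miR-15b-3p, with r = 0.658, and miR-15b-5p, with r = 0.657. Spearman's rho of these 6 was 0.801, 0.797, 0.699, 0.685, 0.736 and 0.698, and r without the 2 libraries farthest from the median of the member was 0.816, 0.763, 0.663, 0.570, 0.705 and 0.686. They were picked as the highest values and carry no p, and miR-142b shares the sequence of miR-142a-3p on the opposite strand, as shown above.

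miR-142b counts were 0.222% to 1.11% of those of miR-142a-3p. At day 90 the share was 0.559% to 0.870% in irradiated and 0.308% to 0.396% in control libraries, so the groups did not overlap. This contrast was picked after its values were seen and is given without a test. It rests on few counts: miR-142b had 21 to 65 in irradiated and 9 to 28 in control libraries of day 90. The levels of miR-142b in CPM overlapped between these groups. At day 14 the share was 0.328% to 0.825% in irradiated and 0.222% to 0.876% in control libraries, and at day 180 it was 0.390% to 1.11% in irradiated and 0.598% to 0.714% in control libraries, overlapping at both days. The day 90 level of miR-142b averaged 13.3 ± 5.16 CPM in irradiated lungs, against 5.59 ± 2.44 CPM in controls (n = 4 per group, ± SD), a log2 fold change of 1.24 ± 0.41 (SE) that did not pass (edgeR adjusted p = 0.256).

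Other miRNAs of immune cells are given for the setting of the members, with none called by edgeR at any day. Of the leukocyte and myeloid list apart from the members (miR-511, from an intron of the macrophage mannose receptor gene Mrc1, miR-147, induced in activated macrophages, and miR-142b), 2, 3 and 4 of 5 were tested at day 14, 90 and 180. Their median log2 fold change was -0.41, 0.56 and 1.26, against 0.01, -0.02 and 0.13 over all miRNAs. The median of day 180 lay between the arms of 1 miRNA, miR-511-3p at 1.13 and miR-511-5p at 1.38. miR-511-5p had only 2 to 61 counts in the irradiated libraries of day 180. mmu-miR-511-3p averaged 24.1 ± 5.37 CPM in irradiated lungs, against 34.6 ± 5.95 CPM in controls, at day 14 (edgeR adjusted p = 0.883) and 34.4 ± 0.615 CPM in irradiated lungs, against 36.5 ± 9.73 CPM in controls, at day 90 (edgeR adjusted p = 0.944). At day 180 it stood at 31.4, 32.8, 54.7 and 193 CPM in irradiated libraries 1 to 4, against 29.8, 44.1, 34.1 and 34.7 CPM in the control libraries. The log2 fold change of 1.13 (edgeR adjusted p = 0.329) was 0.17 without irradiated library 4. mmu-miR-147-3p stood at 17.3, 5.09, 9.87 and 41.2 CPM in the irradiated libraries of day 180, against 2.92, 5.61, 2.62 and 1.86 CPM in the control libraries. Its log2 fold change was 2.48 (edgeR adjusted p = 0.163) and 1.72 without irradiated library 4, and its adjusted p was 0.00588 with DESeq2, 0.0193 with no filter on low counts and 0.0276 in one edgeR fit of all 24 libraries. Over all settings of edgeR, DESeq2 and limma-voom its adjusted p ran from 0.00588 to 0.479. With each library left out in turn, the edgeR adjusted p was 0.0599 to 0.375, so it passed in none of these fits. The highest value of miR-511-3p and of miR-147-3p was that of irradiated library 4, the library with the high miR-223-5p.

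Of the lymphoid list 5 of 6 miRNAs were tested at each day, with 0 called and 0, 0 and 4 above 0, and medians of -0.16, -0.57 and 0.38. The inflammatory list had 7 of 10 tested at each day, 0 called, 4, 4 and 6 above 0, and medians of 0.02, 0.06 and 1.04. At day 180 the tested miRNAs of these lists below 0 were miR-150-5p, at -0.19, and miR-146a-5p, at -0.13. miR-155-5p, a miRNA of activated lymphocytes and macrophages, had all irradiated libraries above all controls at day 180. So had miR-21a-5p and miR-342-5p of these lists, and 5.43% of all miRNAs. Others of these lists lay wholly below the controls: miR-342-3p and miR-146b-5p at day 14, and miR-342-3p and miR-150-3p at day 90. Of all miRNAs, 1.6% and 2.33% did so at these days. At day 90 miR-342-3p averaged 949 ± 110 CPM in irradiated lungs, against 1412 ± 119 CPM in controls (edgeR adjusted p = 0.129). At day 180 the level of miR-155-5p was 1039 ± 676 CPM in irradiated lungs, against 455 ± 94.2 CPM in controls (n = 4 per group, ± SD). This miRNA did not pass (edgeR adjusted p = 0.259). Its highest value, 2015 CPM, was again that of irradiated library 4, without which the log2 fold change was 0.67 in place of 1.19, and its adjusted p in one edgeR fit of all 24 libraries was 0.0371. Over all settings of edgeR, DESeq2 and limma-voom the adjusted p of miR-155-5p ran from 0.0371 to 0.496. With each library left out in turn, its edgeR adjusted p was 0.0971 to 0.453.

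Markers of tissues outside the lung were also counted. The striated muscle list summed to 978 to 3921 CPM in irradiated and 371 to 1301 CPM in control libraries of day 90, with 7 of 7 tested members above 0 and miR-133b-3p called higher. The hepatocyte list summed to 660 to 1069 CPM in irradiated and 166 to 473 CPM in control libraries of day 90, with miR-122-3p called higher. Both calls had an edgeR adjusted p of 0.0221 and did not hold when the 24 libraries were fitted at once (adjusted p = 0.252 for miR-133b-3p and 0.594 for miR-122-3p) or without irradiated library 1, 2 or 3 or control library 1 (0.0525 to 0.163). That of miR-122-3p was also lost without control library 2 (0.0884) or 3 (0.132) and at a minimum mean of 10 CPM (0.0523), a level that miR-133b-3p does not reach. The stratified epithelium list summed to 520 to 582 CPM in irradiated and 552 to 4017 CPM in control libraries of day 14, with control library 2 highest. No miRNA of these lists was at 0 in all libraries of a day, and the part of these tissues in the levels of miR-142a and miR-223 was not tested.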

How the data were processed

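Small RNA of 24 lung libraries was sequenced, 4 per group. Per the labels' protocols, RNA of about 18 to 30 bases was cut from a gel, ligated to adaptors and amplified. The authors deposited, for each day, a raw count per mature miRNA and library, and an RPM value that divides the count by a total of 11984009 to 16081430, of which the counts listed make up 21.5% to 26.9%. The make-up of this total is not stated. Per the submitters' processing notes, Bowtie2 and the build GRCm38.p6 were used; how is not said. Molecular identifiers are not mentioned, so counts are not taken as molecules, and counting error is a lower limit of the error.

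Counts of a day were fitted with edgeR 4.0.16 (R 4.3.3; filterByExpr with its minimum count of 10, TMM, quasi-likelihood F-test with the legacy fit) over all miRNAs, with Benjamini-Hochberg adjustment and a threshold of 0.05. All 4 members passed the filter at each day. SEs and 95% intervals were derived from the F statistic and are approximate. Differences between days came from 1 fit of 24 libraries. Ratios used a pseudocount of 0.5, and centred log2 CPM a prior count of 2, with 100000 permutations within groups. Alternatives used DESeq2 1.42.0 and limma-voom (limma 3.58.1). The edgeR scripts were tested on simulated data. Within a group no library was a copy of another: the closest pair of a group differed by a chi-square of 50.2 per degree of freedom. Libraries of different groups were not compared in this way. Replicate numbers are shared between groups. Deviations of same-numbered libraries correlated at 0.172 to 0.465 at day 14, at -0.224 to 0.355 at day 90 and at -0.356 to -0.0934 at day 180. At day 14 irradiated library 2, at 0.172, correlated more with a control library of another number. A pairing by number at day 14 is therefore possible but not established, and the labels do not state it. The main tests do not use it, and the replicate block below does.

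Members and lists were chosen with earlier results of these data known. Named are the members, miRNAs of the lists that stand in a ratio or are set beside a result, and the 3 miRNAs most correlated with miR-142a-3p and with miR-223-3p. miR-155-5p, miR-147-3p, miR-511-3p and the miR-142b share were picked after their values were seen, as were their refits under the alternatives and those of the miRNAs called at day 90. The values of miR-21a-5p, miR-342-5p and miR-146a-5p at day 180 were also picked after they were seen. So were those of miR-342-3p, miR-146b-5p and miR-150-3p at day 14 or 90, and of miR-144-3p at day 90 and 180.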

Additional observations from a re-analysis of the deposited data

Results flagged for a closer look

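Among 60 group and measure combinations (4 miRNA levels and 6 ratios in 6 groups of 4 libraries), 5 held 1 library far from its other 3, by Dixon's gap test; chance gives about 1 in 20. Irradiated library 1 of day 180 had a miR-223-3p over miR-142a-3p ratio of 0.177. Irradiated library 2 of day 90 had a miR-223-3p over miR-223-5p ratio of 132. Irradiated library 2 of day 14 had a miR-223-3p over miR-451a ratio of 0.0185. For miR-142a-3p over miR-126a-3p, control library 1 of day 14 had 0.0595 and control library 4 of day 180 had 0.0463.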

How the results depend on the processing

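No member was called in any day or difference of days under any setting run, these being other scalings, filters, tests, 1 fit of all libraries, the replicate block and each library left out. The ratio tests cannot speak to stability: the smallest exact p is 0.125 within 4 pairs and 0.0571 with 1 library left out, so no ratio could pass there. The lowest adjusted p of a member was 0.135 (miR-223-5p at day 180). With the replicate block, which pairs libraries of the same number, the day 14 log2 fold change of miR-223-3p was -0.41 (edgeR adjusted p = 0.743) and 0 members were called; the block changed no call of a member at any day. The calls of miR-133b-3p and miR-122-3p at day 90 were lost with the block (edgeR adjusted p = 0.0987 and 0.138). Over all miRNAs the calls did move. At day 14 they were 7 with no filter, 1 with DESeq2 and 1 with all 24 libraries in one fit, against 0. At day 90 they were 5 with upper-quartile scaling, 18 with no filter, 0 with only miRNAs of mean 10 CPM or more, 18 with DESeq2, 0 in one fit and 0 with the block, against 2. At day 180 they were 18 with no filter, 29 with DESeq2 and 32 in one fit, against 0. Without 1 library they were 0 to 1, 0 to 7 and 0 to 5 at the 3 days. The cause was not tested.

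Signs of values near 0 turned. miR-142a-5p at day 180 was 0.019 with RLE size factors, 0.039 with only miRNAs of mean 10 CPM or more and 0.019 with DESeq2. The day 90 minus 14 difference of miR-142a-5p was 0.0055 with limma-voom and 0.0063 with the block, and the day 180 minus 90 difference of miR-142a-3p was 0.058 with RLE. With 1 library left out, log2 fold changes ran from -0.21 to 0.24 (miR-142a-3p) and -0.27 to 0.10 (miR-223-5p) at day 14, and from -0.049 to 0.49 (miR-142a-3p), -0.13 to 0.12 (miR-142a-5p) and -0.19 to 0.13 (miR-223-3p) at day 180. Differences of effect ran from -0.36 to 0.17 (miR-142a-5p), -0.28 to 0.32 (miR-223-3p) and -0.44 to 0.034 (miR-223-5p) for day 90 minus 14, and from -0.40 to 0.24 (miR-142a-3p) for day 180 minus 90. Log2 ratios ran from -0.21 to 0.24 at day 14 and -0.027 to 0.34 at day 180 (miR-142a-3p over miR-126a-3p), from -0.10 to 0.049 at day 90 and -0.41 to 0.033 at day 180 (miR-142a-5p over miR-142a-3p), from -0.33 to 0.0014 at day 90 (miR-223-3p over miR-223-5p), and at day 180 from -0.55 to 0.19 (miR-223-3p over miR-142a-3p) and -0.18 to 0.48 (miR-223-3p over miR-451a).

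Of the 6 correlations between members, 1 passed without the 2 libraries farthest from the median, and 1 without irradiated library 1 of day 180, a setting chosen after seeing the data, against 2. That of miR-142a-3p with miR-223-5p was 0.114 and 0.282 there, against -0.10.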
